A study of Mus musculus with 18 samples.

Results

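Mouse embryonic stem cells that carry GFP at the Brachyury (T) locus were differentiated as embryoid bodies, and GFP-positive, mesoderm-stage cells were separated by flow cytometry on endoglin (Eng, E), a co-receptor for TGFβ and BMP ligands, and Flk-1 (Kdr, F), a VEGF receptor. The comparison described here sets the E+F+ cells against the unsorted population, both reaggregated for 24 h with 10 µM IWR-1. The study calls the unsorted population unfractionated and describes no GFP gate for it. IWR-1 is a small molecule that inhibits tankyrase, stabilises Axin and thereby lowers canonical Wnt signalling. The comparison comprised 6 of the 18 RNA-seq libraries in the series, with 3 E+F+ and 3 unsorted libraries. They were numbered Set 1 to Set 3 in each group, and libraries of the same Set were treated as pairs. The other 12 libraries were E+F+ and unsorted cells reaggregated with the DMSO vehicle and E+F- cells under either treatment, so both groups compared here had received the compound. All groups came from a single stem cell line, and the study describes the libraries as independent biological samples. Of 20321 rows in the expected-count table, 13826 had enough counts to be tested. The IWR-1 arm addresses how sorted mesoderm fares when Wnt signalling is inhibited.

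Primitive erythroid cells are the earliest blood cells of the mouse embryo and arise from extraembryonic mesoderm that has passed through the primitive streak. Entry into this lineage is driven by a small group of DNA-binding proteins, among them Tal1, Gata1, Gata2 and their partner Lmo2, and then by Klf1, which switches on globin, haem and red cell membrane genes. Cells leaving the streak lose the streak factors T and Eomes, and they lose E-cadherin as they change from an epithelial sheet into migrating mesenchyme. Canonical Wnt, Nodal and FGF signals maintain the streak, and many of their target genes are also feedback inhibitors.

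Blood genes were higher and primitive streak, pluripotency and epithelial genes were lower in E+F+ cells than in unsorted cells. A gene was called when its edgeR quasi-likelihood adjusted p was under 0.05 with Set as a paired term. Under this rule 2699 genes (19.5% of those tested) were called, of which 1176 (8.51%) were higher and 1523 (11.0%) lower in E+F+. These shares are the background for the list counts below. Of the genes tested 1457 (10.5%) were called and differed at least 2-fold, and the median log2 difference over all tested genes was 0.0046. The count fell to 1389 without the paired term, to 1494 without E+F+ Set 3, to 1588 without E+F+ Set 1, to 1722 without E+F+ Set 2, to 1576 without unsorted Set 1, to 1772 without unsorted Set 2, to 1202 without Set 1 and to 605 without Set 2. Levels are given below as TPM (transcript abundance corrected for length and depth) in Sets 1, 2 and 3 in that order, and differences as log2 values, E+F+ minus unsorted. In pools of cells such as these, fewer cells of a type and less RNA per cell cannot be told apart.

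The 6 libraries held 22582928 to 26626054 expected counts, and mitochondrial transcripts took 2.145% to 2.73% of counts in E+F+ and 2.162% to 3.147% in unsorted cells. On the leading principal component of all 18 libraries, which carried 48.7% of the variance, the 3 E+F+ libraries lay at 62.94, 59.37 and 74.49. The unsorted libraries were spread more widely, at -51.63 in Set 1, -7.953 in Set 2 and 4.548 in Set 3. Unsorted Set 1 therefore stood apart from the other unsorted libraries on this component. On the next component (17.3% of the variance) unsorted Set 3 lay furthest out, at -58.51 against -27.18 in Set 1 and -10.73 in Set 2. The differences are also given below within each Set.

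Neither antigen used for sorting was called at the RNA level. Eng was at 7.66, 6.87 and 11.22 TPM in E+F+ and at 6.1, 5.0 and 10.37 TPM in unsorted cells. The groups overlapped, and the difference of 0.38 (SE 0.32, 95% interval -0.29 to 1.06) was not called (edgeR adjusted p = 0.429). Kdr was at 24.74, 24.18 and 18.91 TPM in E+F+ against 81.22, 72.59 and 23.28 TPM in unsorted cells. Unsorted Set 3 lay within the range of the E+F+ libraries, and the difference of -1.11 (SE 0.40) was not called either (edgeR adjusted p = 0.0657). The libraries were made after reaggregation, so these levels are not those at the sort. Summed over the blood markers, the E+F+ libraries held 1137 to 6770 TPM and the unsorted libraries 53.62 to 1631 TPM, and the 2 ranges overlapped because of unsorted Set 3. Most of each sum was the globin Hbb-bh1, at 6445.35 TPM in E+F+ Set 3 and 1541.33 TPM in unsorted Set 3. The markers Gata1, Tal1 and Klf1 did not overlap between the groups. Itga2b overlapped narrowly, with 17.42 TPM in E+F+ Set 2 and 17.68 TPM in unsorted Set 3.

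Of 22 haematopoietic transcription factors, 15 were higher and 1 was lower in E+F+, with a median difference of 1.203. Gata1, the factor that directs erythroid and megakaryocyte genes (chrX:7959260-7978071, minus strand, GRCm38), was at 48.23, 42.48 and 102.32 TPM in E+F+ and at 2.33, 7.63 and 23.34 TPM in unsorted cells. Every E+F+ library was above every unsorted library, and Gata1 rose by 2.94 (SE 0.35, edgeR adjusted p = 0.000273). Klf1, the erythroid activator of globin genes (chr8:84901928-84905291, plus strand), was at 35.4, 21.02 and 67.23 TPM against 1.77, 1.84 and 11.22 TPM. The lowest E+F+ level, in Set 2, exceeded the highest unsorted level, in Set 3, and the rise was 3.55 (SE 0.48, edgeR adjusted p = 0.000659). Gfi1b, a repressor needed for erythroid and platelet development, was at 50.1, 40.1 and 73.45 TPM against 2.74, 7.02 and 18.34 TPM. It rose by 2.98 (SE 0.43, edgeR adjusted p = 0.000807), again with no overlap, and kept this call in 16 of 16 alternative settings. Nfe2, a partner factor for late erythroid and platelet genes, went from 1.84, 3.6 and 17.31 TPM in unsorted cells to 29.74, 20.93 and 64.52 TPM in E+F+, a rise of 2.80. Without the paired term the edgeR adjusted p was 0.0546 for Gata1, 0.0639 for Klf1 and 0.0951 for Nfe2, so these 3 calls rest on comparing libraries within a Set.

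Factors that act earlier in blood formation also rose. Tal1, the factor required for all embryonic blood, was at 80.41, 57.1 and 111.52 TPM in E+F+ and at 10.38, 21.34 and 37.46 TPM in unsorted cells. The groups did not overlap and the rise was 2.05 (SE 0.50, edgeR adjusted p = 0.0116), but the call was lost without unsorted Set 1, without E+F+ Set 1 and without Set 1 as a whole, where adjusted p reached 0.162. Gata2, which acts in blood progenitors, was at 42.68, 30.3 and 38.74 TPM against 9.55, 17.1 and 24.05 TPM. It rose by 1.29 (SE 0.29, edgeR adjusted p = 0.00774), with all E+F+ libraries above the unsorted ones, and the call was lost with the 6 libraries alone and without Set 1 or Set 2, where adjusted p reached 0.153. Lmo2, the bridging protein of the Tal1 complex, rose by 1.02 and Runx1, the factor of definitive haematopoiesis, by 0.92. Bcl11a, which represses embryonic globins in later erythroid cells, fell by 4.25, from 5.17, 1.16 and 0.95 TPM in unsorted cells to 0.19, 0.19 and 0.0 TPM in E+F+. The number of factors called higher was 6 without the paired term, 10 without E+F+ Set 1, 9 without Set 1 and 10 without Set 2.

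Most haem synthesis genes were higher in E+F+ cells, while most iron genes were not called. Of 15 tested haem synthesis and transport genes 10 were higher and 1 was lower, with a median of 1.03. Alas2, the erythroid form of the enzyme that opens haem synthesis, was at 62.83, 43.46 and 111.66 TPM in E+F+ and at 2.42, 6.04 and 26.9 TPM in unsorted cells, a rise of 3.16 (SE 0.52, edgeR adjusted p = 0.00151) that was not called without the paired term (adjusted p = 0.0797). Alas1, the form used outside the red cell lineage, fell by 0.36, a call lost without the paired term, with the 6 libraries alone, without any of the 3 Sets and without any single library except E+F+ Set 1. The later enzymes also rose, with Cpox going from 38.2, 30.05 and 39.58 TPM to 97.06, 74.16 and 142.16 TPM (1.59, SE 0.17, edgeR adjusted p = 0.000154) and Ppox rising by 1.07. Abcb10, a mitochondrial transporter needed for haemoglobin production, was at 103.6, 77.05 and 127.28 TPM against 21.08, 26.85 and 41.65 TPM. It rose by 1.88 (SE 0.18, edgeR adjusted p = 0.000122), with no overlap. Among 10 iron genes, the ferritin receptor Ncoa4 (0.87) and the transferrin receptor Tfrc (0.63) rose. The other 8 were not called.

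Of 24 tested red cell membrane and erythropoietin response genes 14 rose and none fell, with a median of 1.35. Epor, the erythropoietin receptor, was at 51.06, 31.54 and 89.14 TPM in E+F+ and at 13.26, 7.37 and 25.36 TPM in unsorted cells. It rose by 2.02 (SE 0.25, edgeR adjusted p = 0.00034), with no overlap between groups. Trim10, an erythroid RING finger protein, was at 10.7, 5.94 and 21.78 TPM against 0.18, 0.45 and 3.98 TPM. All 3 E+F+ libraries lay above the unsorted ones, and the rise was 3.66 (SE 0.56, edgeR adjusted p = 0.00107), a call lost without the paired term (adjusted p = 0.064). The anion exchanger Slc4a1, which anchors the membrane skeleton, rose by 3.45, although it was at most 5.58 TPM. Without the paired term 3 members of this list were called, and the number was 9 without Set 1 and 6 without Set 2.

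Promoter sequences of 4 of these genes that rose are shown, because Gata1 and Klf1 bind short motifs that can be read in them. Each is the run of 250 bases before the start site in RefSeq (GRCm38.p6), printed on the gene's strand, 5′ to 3′, with GATAA and CACCC in capitals on either strand, so that a motif on the opposite strand shows as its reverse complement.
Gfi1b, chr2:28621983-28622232, minus strand: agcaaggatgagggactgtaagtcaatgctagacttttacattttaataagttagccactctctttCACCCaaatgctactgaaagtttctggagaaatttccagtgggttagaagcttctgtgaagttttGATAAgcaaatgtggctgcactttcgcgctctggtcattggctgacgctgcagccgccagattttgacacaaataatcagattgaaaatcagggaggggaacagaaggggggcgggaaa
Epor, chr9:21963577-21963826, minus strand: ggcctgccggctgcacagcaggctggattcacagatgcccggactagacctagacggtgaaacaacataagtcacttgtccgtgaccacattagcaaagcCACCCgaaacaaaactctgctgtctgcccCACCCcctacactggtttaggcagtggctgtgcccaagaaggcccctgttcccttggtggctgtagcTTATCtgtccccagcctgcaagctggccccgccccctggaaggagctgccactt
Cpox, chr16:58669958-58670207, plus strand: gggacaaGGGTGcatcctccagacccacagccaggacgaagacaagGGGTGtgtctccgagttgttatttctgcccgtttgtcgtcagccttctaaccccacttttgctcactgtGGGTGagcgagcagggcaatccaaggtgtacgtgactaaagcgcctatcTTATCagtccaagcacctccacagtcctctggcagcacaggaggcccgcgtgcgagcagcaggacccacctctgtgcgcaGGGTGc
Trim10, chr17:36869324-36869573, plus strand: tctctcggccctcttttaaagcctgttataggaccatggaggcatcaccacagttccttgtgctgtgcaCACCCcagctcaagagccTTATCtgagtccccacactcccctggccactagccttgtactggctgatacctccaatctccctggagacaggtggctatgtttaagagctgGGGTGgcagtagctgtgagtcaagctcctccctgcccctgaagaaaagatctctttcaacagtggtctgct
GATAA on either strand was present in 22.6% of all 32851 mouse promoters of this length and CACCC in 52.0%, with both present in 10.1%. Of the 45 blood genes called higher, 31 matched the promoter table through 41 promoters. GATAA was present in 18 of them (43.9%), CACCC in 32 (78.0%) and both in 16 (39.0%). The 4 promoters shown were picked by hand and each holds both motifs, so they are not typical of the 41. A match of letters is a description and not evidence of binding.

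Globin transcripts were abundant, and their levels were several-fold higher in Set 3 than in the other Sets. Of 7 tested globins 6 rose, with a median of 3.44. Hbb-bh1, an embryonic β-globin, was at 954.62, 999.45 and 6445.35 TPM in E+F+ and at 32.76, 67.99 and 1541.33 TPM in unsorted cells. Unsorted Set 3 was above E+F+ Sets 1 and 2, so the groups overlapped, but within each Set the E+F+ library was higher (3.72, SE 0.75, edgeR adjusted p = 0.00441). Hba-x, the embryonic α-globin, showed the same arrangement, with 202.75, 156.82 and 2441.84 TPM against 9.13, 21.14 and 930.82 TPM (2.87, SE 0.68, edgeR adjusted p = 0.0102). Hbb-bs, an adult β-globin, was at 22.19, 24.47 and 119.43 TPM against 0.65, 0.55 and 15.18 TPM and rose by 4.26. Globin paralogues share sequence, and reads of Hba-a1 and Hba-a2 or of the β-globins may have been split between copies. No globin was called without the paired term or without Set 2.

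**Figure D1:**
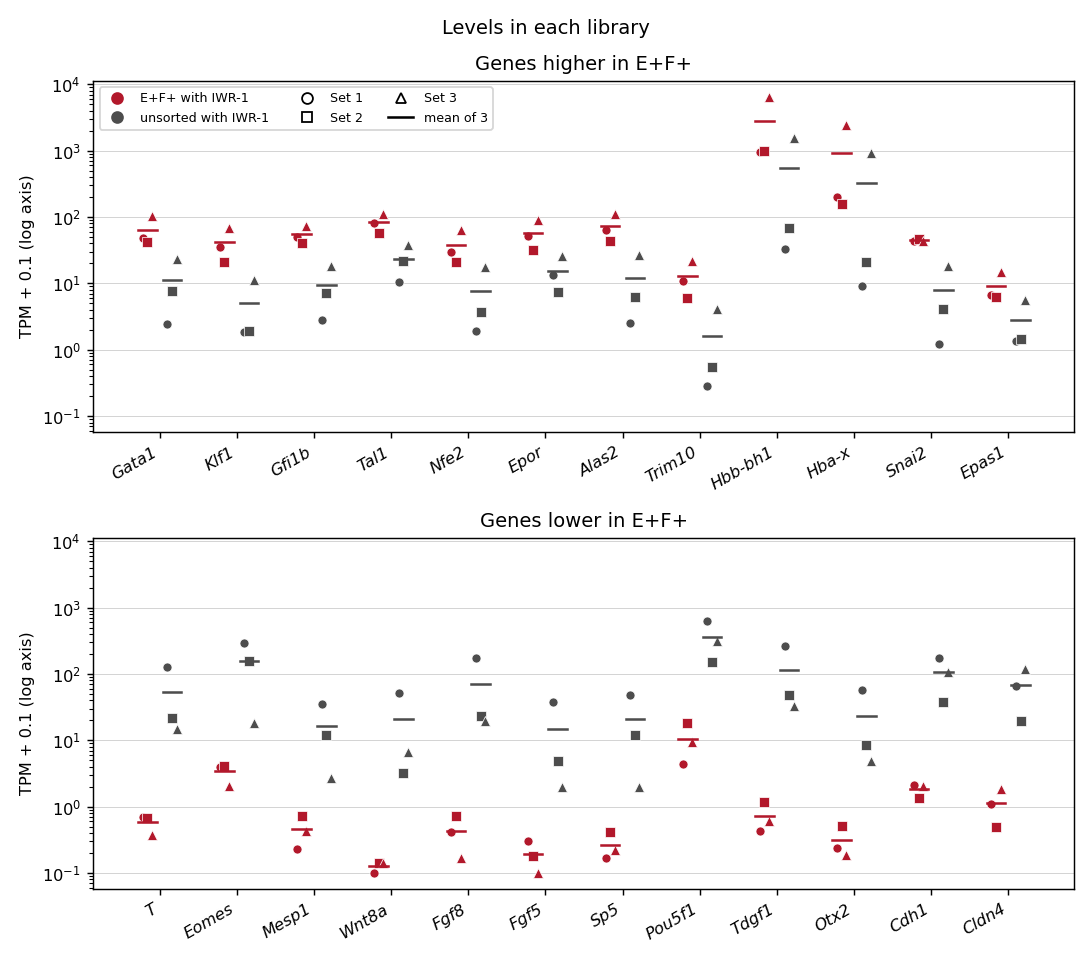
TPM plus 0.1 on a log axis for 12 genes higher (top) and 12 genes lower (bottom) in E+F+, with red for E+F+ and grey for unsorted libraries under IWR-1, symbols for Sets and bars for the mean of 3 libraries. Gata1 lies at 42.48 to 102.32 TPM in E+F+ and 2.33 to 23.34 TPM in unsorted cells, and T at 0.28 to 0.59 against 14.58 to 125.82 TPM.

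Early blood, megakaryocyte and endothelial genes were measured next. Itga2b (CD41), which marks the earliest blood progenitors and platelets, rose by 1.55, while Kit, the stem cell factor receptor, was at 7.69, 5.51 and 12.39 TPM against 8.71, 4.01 and 8.91 TPM and was not called. In all, 3 of 17 tested early blood and megakaryocyte genes rose and 1 fell, with none called higher without the paired term and 1 without unsorted Set 2, without E+F+ Set 1, without Set 1 or without Set 2. Of 29 tested endothelial genes 1 rose and 2 fell, with a median of 0.25. Egfl7, a matrix protein secreted by endothelium, was at 136.52, 129.51 and 121.3 TPM against 73.21, 94.5 and 92.57 TPM and rose by 0.64 (SE 0.12, edgeR adjusted p = 0.00286). The semaphorin co-receptor Nrp2 fell by 1.33. Etv2, the factor that opens the blood and endothelial programme, was at 7.51, 9.2 and 3.81 TPM against 30.55, 53.99 and 6.93 TPM. Unsorted Set 3 lay below E+F+ Sets 1 and 2, and the fall of Etv2 (-1.85, SE 0.60, edgeR adjusted p = 0.0448) kept its call in 6 of 16 alternatives. Pecam1 (0.86, SE 0.34), Tek (0.72, SE 0.46) and Cdh5 (0.47, SE 0.53), which are receptors and adhesion proteins of endothelium, were not called.

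Of 18 tested primitive streak genes 14 were lower and none higher, with a median of -4.26. T (chr17:8434423-8442496, plus strand), the T-box factor of the streak, was at 0.59, 0.57 and 0.28 TPM in E+F+ and at 125.82, 21.57 and 14.58 TPM in unsorted cells. All E+F+ libraries were far below the unsorted ones, and T fell by 6.39 (SE 0.84, edgeR adjusted p = 0.000562). Eomes, another T-box factor of the streak, was at 3.92, 3.98 and 1.98 TPM against 293.81, 158.99 and 17.99 TPM and fell by 5.17 (SE 0.78). Mesp1, a marker of nascent cardiac mesoderm, was at 0.13, 0.63 and 0.33 TPM against 35.33, 11.75 and 2.57 TPM, a fall of 5.07 (SE 1.01, edgeR adjusted p = 0.00417). T, Eomes, Evx1, Mesp1 and Fgf8 kept their calls in 16 of 16 alternatives, while the number of members called was 8 without E+F+ Set 1 and 7 without Set 2. Of 14 tested paraxial mesoderm genes 3 fell, among them Meox1 (-4.24), a factor of the somites. Msgn1, the factor of presomitic mesoderm, was listed at 0 in the 3 E+F+ libraries and at 1.05, 0.13 and 0.3 TPM in the unsorted ones, and it was not called.

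Canonical Wnt targets were lower in E+F+ although both groups had received the Wnt inhibitor. Of 20 tested feedback and target genes 9 fell and none rose, with a median of -1.02. Axin2, the scaffold that limits β-catenin and is itself a direct target, was at 10.35, 8.5 and 6.05 TPM in E+F+ and at 24.26, 16.65 and 14.1 TPM in unsorted cells. It fell by 1.04 (SE 0.22, edgeR adjusted p = 0.00614) with no overlap, and the call was lost without Set 2 (adjusted p = 0.0502). Lef1, which carries β-catenin to DNA, was at 5.42, 7.84 and 5.81 TPM against 22.92, 16.04 and 12.69 TPM and fell by 1.35 (SE 0.24, edgeR adjusted p = 0.00252). The Lef1 call was lost without Set 1 (edgeR adjusted p = 0.059). The largest changes in the list were those of T and of Sp5, a repressor induced by Wnt in the streak, which was at 0.07, 0.31 and 0.12 TPM against 48.62, 11.93 and 1.89 TPM (-6.39, SE 1.11). Among the ligands, Wnt8a was at 0.0, 0.04 and 0.04 TPM against 52.38, 3.1 and 6.66 TPM (-8.67, SE 1.49), and Wnt3 fell by 1.95 (edgeR adjusted p = 0.0166), with its call kept in 12 of 16 alternatives. Of the 10 genes of tankyrase and the β-catenin destruction complex, on which IWR-1 acts, the kinase Csnk1a1 rose by 0.35, with its call kept in 10 of 16 alternatives, and the rest were not called. The number of Wnt targets called was 6 without Set 1 and 5 without Set 2.

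Within the FGF pathway, ligands and feedback inhibitors fell while 3 receptors rose. The ligands Fgf8 (-7.20, SE 1.11), Fgf5 (-6.75, SE 1.22), Fgf17 (-4.32) and Fgf4 (-3.31) fell. Fgf8, the ligand that drives cells out of the streak, was at 0.31, 0.62 and 0.07 TPM against 171.19, 23.23 and 19.29 TPM. Targets and feedback inhibitors fell as well, and Etv4, an ETS factor induced by FGF, was at 0.9, 1.09 and 1.04 TPM against 32.75, 10.81 and 10.91 TPM. It fell by 3.92 (SE 0.35, edgeR adjusted p = 0.000122), with no overlap between the groups. Spry4, Spred1, Dusp6 and Etv5 fell by 4.04, 1.19, 2.81 and 3.63. The receptors Fgfr1 (0.48), Fgfr2 (1.78) and Fgfr3 (1.57) rose, with Fgfr2 at 39.61, 54.72 and 17.98 TPM against 5.67, 17.06 and 11.53 TPM, whereas Fgfr4 fell by 2.42. In total 15 of 22 members fell and 3 rose, and the number higher was 1 without Set 1 or without Set 2.

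The Nodal co-receptor and secreted antagonists were among the 5 of 12 Nodal pathway members that fell. That number was 2 without unsorted Set 1 or without Set 1 and 1 without Set 2. Another 2 members rose, and 0 did so without unsorted Set 2, without Set 1 or without Set 2. Tdgf1 (Cripto), the Nodal co-receptor, was at 0.33, 1.06 and 0.51 TPM against 262.07, 48.16 and 33.27 TPM and fell by 7.02 (SE 1.32, edgeR adjusted p = 0.00306). The secreted Nodal antagonists Lefty1 (-6.90) and Lefty2 (-4.196) fell, and the transducer Smad3 rose by 0.61, with its call kept in 8 of 16 alternatives. Of 24 BMP pathway genes 3 were higher and 4 lower, with a median of -0.008. These counts are not far from the 8.51% higher and 11.0% lower among all tested genes. They were 0 and 1 without the paired term, with 2 lower without E+F+ Set 1, without Set 1 or without Set 2. Bmp4, the ligand that induces blood mesoderm, was at 73.08, 101.94 and 79.17 TPM in E+F+ and at 39.86, 73.73 and 52.53 TPM in unsorted cells. Unsorted Set 2 was just above E+F+ Set 1, but within each Set E+F+ was higher (0.71, SE 0.14, edgeR adjusted p = 0.00336), a call lost without the paired term (adjusted p = 0.0767). Acvrl1, the type I receptor that works with endoglin, was at 9.33, 6.91 and 13.98 TPM against 1.78, 0.79 and 6.38 TPM and rose by 2.14 (SE 0.40, edgeR adjusted p = 0.00312). Id1, a direct BMP target, was at 184.44, 170.89 and 99.78 TPM against 336.03, 327.23 and 352.65 TPM and fell by 1.09 (SE 0.24, edgeR adjusted p = 0.00668), a call lost without Set 3 (adjusted p = 0.0663). Smad1, a transducer of BMP signals, was lower by -1.15 and kept its call in 8 of 16 alternatives.

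Cardiac genes were lower where they were called, with Hand1 as the exception. Of 17 cardiac transcription factors 4 fell and 1 rose, and Mesp1, described above with the streak genes, was among the 4. Of 15 tested contractile and hormone genes 5 fell. That count was 1 without E+F+ Set 3 or without Set 3 as a whole, and without Set 3 another 2 members were called higher. Without the paired term 2 genes of each list were called lower, and without Set 2 the numbers were 1 and 0. Gata4, a factor of heart and endoderm, was at 41.85, 36.59 and 20.36 TPM against 137.17, 143.36 and 29.78 TPM, so that unsorted Set 3 lay among the E+F+ libraries. Its fall of 1.39 (edgeR adjusted p = 0.0183) kept its call in 9 of 16 alternatives. Tbx5, a factor of the early heart tube, was at 1.19, 0.73 and 0.13 TPM against 10.52, 8.35 and 0.51 TPM and fell by 2.98 (SE 0.60, edgeR adjusted p = 0.00443). Myl7, the atrial light chain, was at 27.15, 31.59 and 15.06 TPM against 70.52, 103.62 and 39.33 TPM, with no overlap, and fell by 1.43. Tbx5 and Myl7 were not called without the paired term or without Set 2 (adjusted p up to 0.132 and 0.145). Hand1, a factor of extraembryonic and cardiac mesoderm, was at 570.44, 687.38 and 534.4 TPM against 16.9, 173.92 and 315.09 TPM and rose by 2.03 (SE 0.61, edgeR adjusted p = 0.0334), with its call kept in 9 of 16 alternatives. Nkx2-5 (-1.50, SE 0.60), Isl1 (-1.002, SE 0.45) and Hand2 (-0.10, SE 0.45) were not called.

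**Figure D2:**
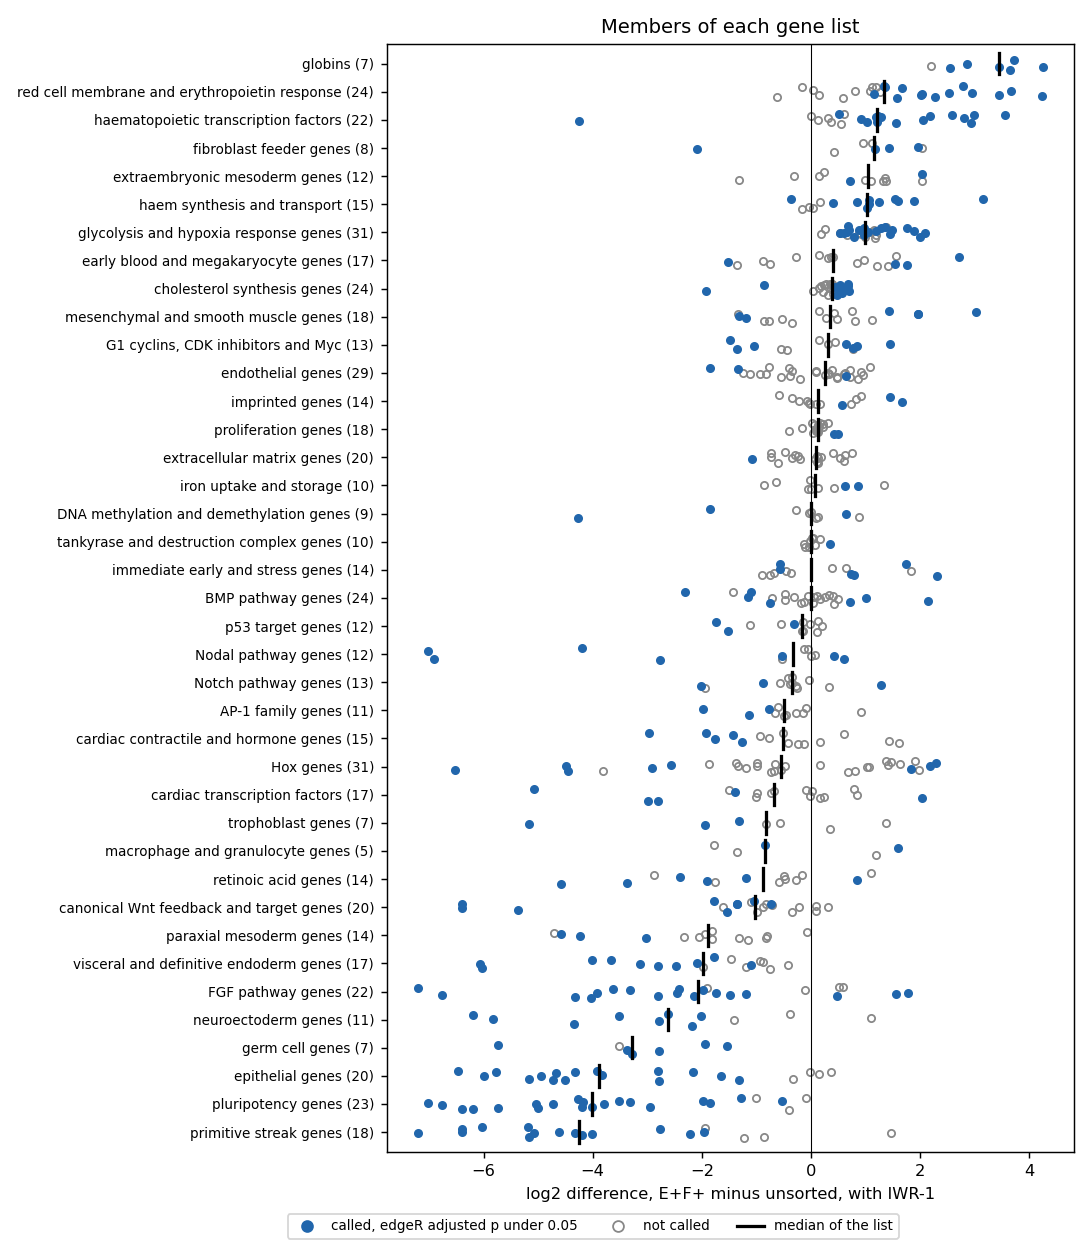
Each point is 1 tested gene, placed on the x axis by its log2 difference between E+F+ and unsorted cells under IWR-1, with blue for called and open for not called genes and a bar at the list's median, for 39 lists with the number tested in brackets. Globins have a median of 3.44 and primitive streak genes a median of -4.26.

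Pluripotency genes fell in 20 of 23 tested cases and none rose, with a median of -4.01. Pou5f1 (Oct4; chr17:35506018-35510772, plus strand) was at 4.29, 18.01 and 9.35 TPM in E+F+ and at 631.88, 149.82 and 316.46 TPM in unsorted cells. The groups did not overlap, and Pou5f1 fell (-5.002, SE 0.77, edgeR adjusted p = 0.00108). Nanog (-4.195), Sox2 (-3.52), Utf1 (-6.40), Esrrb (-5.04) and Zfp42 (-2.95), all factors of the naive or primed pluripotent state, fell too and kept their calls in 16 of 16 alternatives. The de novo DNA methylation genes that accompany this state, Dnmt3b (-1.85) and Dnmt3l (-4.27), were lower. Of 11 tested neuroectoderm genes 8 fell, among them Otx2 (-6.20, SE 1.02), and several of these are also used in the epiblast. The neuroectoderm count was 5 without unsorted Set 1 and 4 without Set 2. Of 17 tested endoderm genes 10 fell, a count that was 4 without E+F+ Set 3 and 2 without Set 2. Summed pluripotency markers ran from 7.68 to 23.45 TPM in E+F+ and from 182.6 to 749.3 TPM in unsorted cells. The part of such cells in the differences of other lists was not tested.

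Epithelial genes fell in 16 of 20 cases and none rose, with a median of -3.88. Cdh1 (E-cadherin; chr8:106603351-106670246, plus strand) was at 2.0, 1.23 and 1.94 TPM in E+F+ and at 177.02, 37.75 and 108.32 TPM in unsorted cells. The fall was 5.76 (SE 0.60, edgeR adjusted p = 0.000151), with every E+F+ library far below the unsorted ones. Cldn4, a tight junction protein, was at 0.98, 0.4 and 1.76 TPM against 65.75, 19.51 and 119.36 TPM and fell by 5.99 (SE 0.61, edgeR adjusted p = 0.000146). The apical polarity gene Crb3 fell by 5.18 and the splicing regulator Esrp1, which maintains epithelial isoforms, by 4.73. Krt18 and Krt19, keratins of simple epithelia, were not called, and neither was Krt8, which was at 1404.02, 1348.06 and 1145.25 TPM against 683.15, 978.39 and 2023.51 TPM (0.37, SE 0.45).

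Snai2 (Slug), a zinc finger repressor of E-cadherin that binds CANNTG motifs, was higher in E+F+ cells. Snai2 (chr16:14705852-14709385, plus strand) was at 43.31, 45.75 and 43.62 TPM in E+F+ and at 1.1, 3.96 and 18.14 TPM in unsorted cells. The E+F+ libraries were close to each other and the unsorted ones differed by Set, and the rise was 3.02 (SE 0.63, edgeR adjusted p = 0.00517), a call lost without Set 2 (adjusted p = 0.111). Of 18 tested mesenchymal and smooth muscle genes 4 rose and 2 fell, against 1 and 1 without the paired term, 2 and 1 without Set 1, and 1 and 0 without Set 2. The number higher was also 2 without any 1 of unsorted Set 1, unsorted Set 2, E+F+ Set 1 and E+F+ Set 2. Twist2, another mesenchymal factor, rose by 1.95 (edgeR adjusted p = 0.0385), and the fibrillar collagens Col1a1 and Col1a2 by 1.96 and 1.43, with the call of Col1a1 kept in 8 of 16 alternatives. Cdh2 (N-cadherin) fell by 1.32. The Cldn4 promoter is shown as an example from the epithelial list, with CANNTG in capitals.
Cldn4, chr5:134946935-134947184, minus strand: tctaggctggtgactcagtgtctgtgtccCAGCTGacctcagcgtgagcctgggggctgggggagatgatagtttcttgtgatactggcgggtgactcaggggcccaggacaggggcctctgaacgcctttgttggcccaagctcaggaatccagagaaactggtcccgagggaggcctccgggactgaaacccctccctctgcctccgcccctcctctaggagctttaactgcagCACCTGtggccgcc
CANNTG, which reads alike on both strands in its fixed letters, was present in 10 of 14 promoters (71.4%) of the 11 matched epithelial genes that fell and in 66.2% of all mouse promoters.

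Glycolysis and hypoxia response genes rose in 19 of 31 cases and none fell, with a median of 0.99. Epas1 (HIF-2α; chr17:86753700-86833410, plus strand), a hypoxia-inducible factor, was at 6.51, 6.15 and 14.54 TPM against 1.26, 1.36 and 5.46 TPM and rose by 1.99 (SE 0.34, edgeR adjusted p = 0.00197), although not without the paired term (adjusted p = 0.0623). Slc2a1, the main glucose transporter of erythroid and embryonic cells, was at 1523.31, 1334.89 and 1420.18 TPM against 674.26, 286.83 and 796.74 TPM, with no overlap (1.49, edgeR adjusted p = 0.0207). Bnip3, a mitophagy receptor induced by hypoxia, rose by 1.88 and Vegfa, the ligand of Flk-1, by 0.97, while Hif1a (0.18, SE 0.09) was not called. The count for this list was 7 without the paired term, 10 without unsorted Set 2 and 3 without Set 2, and 23 without Set 1. Cholesterol synthesis genes rose in 8 of 24 tested cases and fell in 2, with 2 higher without the paired term and none higher without Set 1.

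Of 13 tested genes for G1 cyclins, CDK inhibitors and Myc proteins 4 rose and 3 fell, against 1 and 1 without Set 2 and 2 higher without Set 3. Of 18 proliferation genes 2 were higher, and none without Set 1, without Set 2 or without E+F+ Set 3. Ccnd1, the D-type cyclin induced by Wnt and FGF signals, was at 13.3, 23.63 and 19.38 TPM against 42.09, 50.49 and 57.64 TPM and fell by 1.36 (SE 0.14, edgeR adjusted p = 0.000147). Ccnd3, the D-type cyclin prominent in erythroid cells, was at 342.75, 304.07 and 377.85 TPM against 168.54, 197.51 and 244.56 TPM and rose by 0.84 (SE 0.11, edgeR adjusted p = 0.000459). Neither cyclin overlapped between the groups. The CDK inhibitor Cdkn1c, an imprinted gene, rose by 1.46, and the imprinted growth factor Igf2 was at 1919.2, 1813.32 and 2158.24 TPM against 173.55, 566.05 and 1638.71 TPM (1.68, SE 0.46, edgeR adjusted p = 0.0208), with its call kept in 10 of 16 alternatives. Of 31 tested Hox genes Hoxb4, Hoxb5 and Hoxd1 rose and 5 fell, beside 8.51% higher and 11.0% lower among all tested genes. The number higher was 1 without unsorted Set 1, without E+F+ Set 1, with the 6 libraries alone and without Set 1 or Set 2, and none was lower without the paired term, with the 6 libraries alone or without Set 3. Of the Hox genes called lower, Hoxa7 was listed at 0 in E+F+ and at 0.04, 0.0 and 1.42 TPM in unsorted cells.

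The AP-1 repressor Jdp2, a Jun dimerization protein that the study examined in blood formation, was not called with IWR-1. With DMSO it was called higher in E+F+ (1.47, SE 0.39, edgeR adjusted p = 0.0179). Under IWR-1 Jdp2 (chr12:85599027-85639878, plus strand) was at 25.75, 28.91 and 24.32 TPM in E+F+ and at 6.01, 23.12 and 19.62 TPM in unsorted cells. The lowest E+F+ library was just above the highest unsorted library, and unsorted Set 1 was well below the other 5. The difference of 0.92 (SE 0.39, 95% interval 0.08 to 1.75) had an edgeR adjusted p of 0.114. In the rest of the family Junb (-0.78), Fosl1 (-1.14) and Batf3 (-1.98) fell. Fosl1 kept its call in 6 and Batf3 in 4 of 16 alternatives. No member of the family was called without the paired term or without Set 2, and 1 was called without unsorted Set 1, unsorted Set 2 or E+F+ Set 3. Ddit3 (CHOP), a stress-response factor, was at 91.51, 89.81 and 87.55 TPM against 20.02, 23.8 and 45.69 TPM and rose by 1.74 (SE 0.25, edgeR adjusted p = 0.000755).

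For the streak, globin, haematopoietic factor, extraembryonic mesoderm and glycolysis lists the size of the difference varied with Set while its direction did not. Over the streak genes the median log2 ratio of E+F+ to unsorted was -4.94 in Set 1, -2.06 in Set 2 and -2.51 in Set 3. Over the globins it was 4.76, 3.29 and 2.01, and over the haematopoietic factors 1.54, 0.66 and 1.25. The extraembryonic mesoderm list went from 2.28 in Set 1 to 0.92 and 0.15 in Sets 2 and 3, whereas the glycolysis list was lowest in Set 1, at 0.55 against 1.43 and 1.08. Endothelial (0.57, -0.12 and 0.00) and cardiac transcription factor lists (-0.23, -0.73 and 0.09) changed sign between Sets. Other lists did so too, among them the Hox genes (0.61, 0.43 and -0.98) and the cardiac contractile and hormone genes (0.03, -0.74 and -0.80). Over all tested genes the median ratio was within 0.0121 of 0 in each Set.

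**Figure D3:**
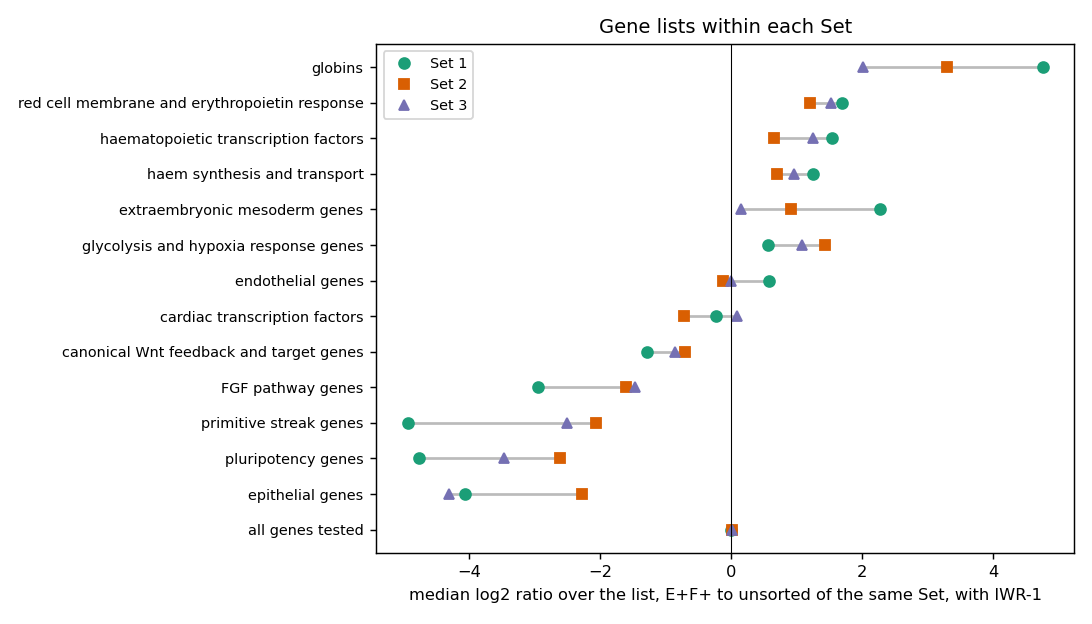
Median log2 ratio of E+F+ to unsorted cells of the same Set under IWR-1 (x axis) for 13 gene lists and for all tested genes, with 1 symbol per Set joined by a grey line. The 3 Sets share a sign in the blood, streak, pluripotency and epithelial lists, and streak genes run from -4.94 in Set 1 to -2.06 in Set 2.

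The difference between E+F+ and unsorted cells was compared between IWR-1 and the DMSO vehicle through an interaction term, to ask whether inhibiting Wnt altered it. With DMSO 2806 genes (20.3%) were called, 1367 (9.89%) higher and 1439 (10.4%) lower. The 2 contrasts have no library in common, and 816 genes were called higher in both, which is 69.4% of those higher with IWR-1 and 59.7% of those higher with DMSO. For genes called lower the shared number was 995, or 65.3% and 69.1% of the respective lists, and no gene was called in opposite directions. The interaction itself was called for 0 genes (0.0%) by edgeR, 331 genes (2.39%) had an unadjusted p under 0.05, and DESeq2 also called 0. A difference that misses the threshold does not show that the 2 contrasts are alike. Few genes were called between IWR-1 and DMSO within a population, with 9 (0.0651%) in E+F+ cells and 120 (0.868%) in unsorted cells. With 3 libraries per group, these counts do not show that the compound left the other genes unchanged. In E+F+ cells Jdp2 differed by -1.07 (SE 0.38) and Epas1 by -1.24 (SE 0.33), and neither was called. In unsorted cells Epas1 was called lower (-1.93, edgeR adjusted p = 0.0204). The study chose Jdp2 and Epas1 among genes that differed between control and IWR-1 in its RNA-seq of E+F+ cells. It used EBSeq and other thresholds there, so the calls are not on one scale. By qPCR it also found both genes lowered by IWR-1 in E+F+ cells. Notum, a secreted Wnt inhibitor and feedback target, fell by 2.42 with IWR-1 in E+F+ cells.

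The interaction estimates of Gata1 and Klf1 were smaller than their errors. Gata1 differed by 2.94 with IWR-1 and by 3.01 with DMSO, and the interaction was -0.07 (95% interval -1.05 to 0.92). For Klf1 the interaction was 0.22 (95% interval -1.15 to 1.58). Among the 22 haematopoietic factors Hhex alone had an unadjusted interaction p under 0.05 (edgeR unadjusted p = 0.0124), with 0.00 under IWR-1 and 1.03 under DMSO, and it was not called. Bmp4 was at 144.0 TPM on average in E+F+ and 145.8 TPM in unsorted cells with DMSO (a difference of 0.06) and differed by 0.71 with IWR-1. The interaction of 0.65 had an unadjusted p of 0.00416 (edgeR) and was not called. Tfrc showed 0.01 with DMSO and 0.63 with IWR-1 (interaction 0.61, edgeR unadjusted p = 0.013), and it was not called either. For T the difference was -8.46 with DMSO and -6.39 with IWR-1, with an interaction of 2.07 (95% interval -1.50 to 5.64). Axin2 had an interaction of 0.12 (95% interval -0.56 to 0.79). Of the 20 tested Wnt feedback and target genes 4 had an unadjusted interaction p under 0.05 (edgeR), beside 2.39% of all tested genes. None of the 4 was called. Jdp2 differed by 1.47 with DMSO and by 0.92 with IWR-1, with an interaction of -0.55 (95% interval -1.70 to 0.60). Among called genes named here, Myh6, the α-myosin heavy chain, had the smallest interaction p (3.70, edgeR unadjusted p = 0.000684), but its level was at most 0.52 TPM in the 6 libraries.

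**Figure D4:**
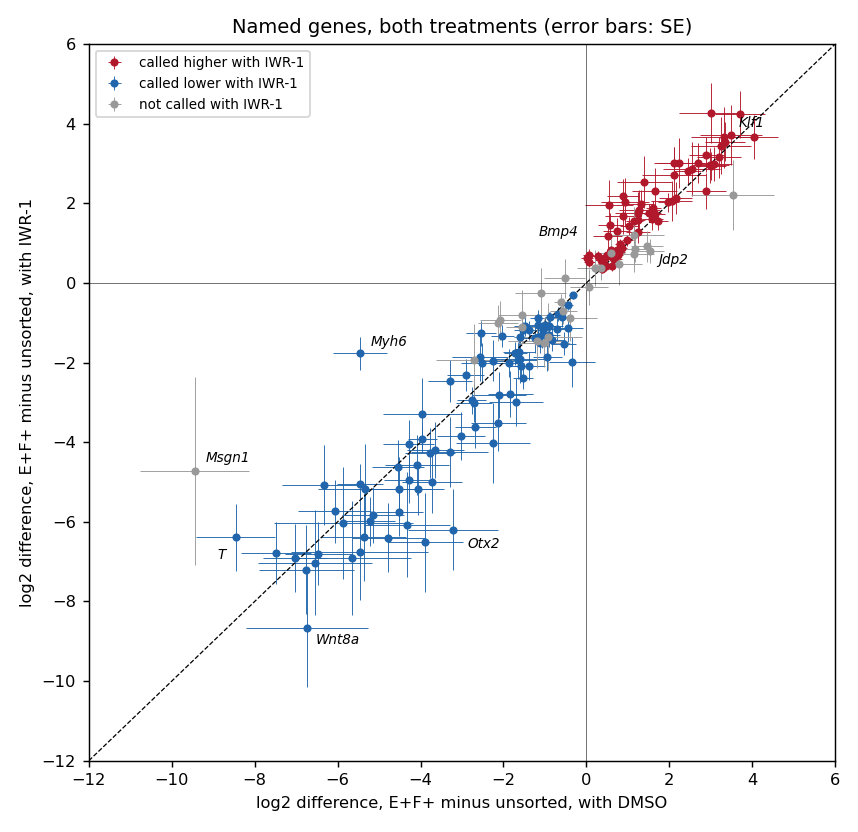
Log2 difference between E+F+ and unsorted cells with DMSO (x axis) and with IWR-1 (y axis) for the named genes, with standard errors as bars, red and blue for genes called higher and lower with IWR-1, grey for the rest, and a dashed line of equality. Gata1, at 3.01 and 2.94, lies close to the line, and no gene's interaction was called.

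E+F- cells, sorted as positive for endoglin and negative for Flk-1, were also reaggregated with IWR-1, and E+F+ cells were contrasted with them directly. This contrast called 4290 genes (31.0%), 2057 (14.9%) higher and 2233 (16.2%) lower in E+F+, and 2028 without Set 2. E+F- cells differed from unsorted cells in 1717 genes (12.4%), and these contrasts share libraries with the one above, so their values are given side by side only. Gata1 averaged 1.733 TPM in E+F- cells, below its mean in both other groups, and was higher in E+F+ by 5.50 than in E+F-. Mesp1 averaged 192.6 TPM in E+F- cells and was lower in E+F+ by -8.99. Jdp2, not called against unsorted cells under IWR-1, averaged 7.217 TPM in E+F- cells and was higher in E+F+ by 2.00 (edgeR adjusted p = 0.00202). Cdh5 and Tek behaved likewise, with differences of 3.25 and 3.498 from E+F- cells (edgeR adjusted p = 0.00104 and 0.000252). Kdr was lower in E+F+ than in E+F- cells by -1.51 (edgeR adjusted p = 0.0112), with E+F- averaging 73.22 TPM, so after reaggregation the transcript of the sort antigen ran against the label.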

How the data were processed

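RNA was prepared with the TruSeq RNA v2 kit, which does not record strand, and sequenced as single reads in 18 libraries. Per the study's methods and the submitters' processing notes, the authors called bases with CASAVA 1.8.2, aligned reads with Bowtie 0.12.9 and estimated gene levels with RSEM 1.2.3 on mm10 RefSeq transcripts. The authors deposited the RSEM expected counts (20321 rows, 13 of them mitochondrial) and TPM values (20308 rows), which correct for transcript length. Expected counts were rounded here and tested with edgeR 4.0.16 in R 4.3.3, with all 18 libraries, a group term, a Set term and TMM scaling, by the quasi-likelihood test with Benjamini-Hochberg adjustment over 13826 genes that passed filterByExpr. TPM served for levels. Same-numbered libraries deviated together (correlations 0.27, 0.28 and 0.49 between the E+F+ and unsorted libraries of a Set), so Set was kept as a pairing term. Named genes were those the study examined, the 10 largest changes per direction over 10 CPM, up to 4 called genes per list and marker genes. Genes outside these rules, such as Axin2, Lef1, Rasgrp2, Bcl11a, Lmo2, Fgfr2 and Slc2a1, were chosen after their values were seen. The genes and lists were chosen with earlier results of these data known. Some genes belonged to several lists, so the list counts are not independent. Among these were T (streak and Wnt), Fgf8 (streak and FGF) and Tdgf1 (Nodal and pluripotency). Alternatives were another scaling (RLE), DESeq2 1.42.0, limma 3.58.1 on log2(TPM + 1), no filter on low counts, a stricter threshold, no Set term, 6 libraries only and leaving out each library or Set. Coordinates are from GENCODE on GRCm38.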

Additional observations from a re-analysis of the deposited data

How the results depend on the processing

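Of 148 named genes that were called, 56 kept the call in each of 16 alternatives and 0 changed direction (the stricter threshold was applied to the counts of genes only). The number of genes called between E+F+ and unsorted cells (2699) was 1109 at an adjusted p under 0.01 (419 higher, 690 lower), 1389 without the replicate block that pairs the Sets (503 higher, 886 lower, so 36.2% higher against 43.6%), and 1482 with the 6 libraries alone (536 and 946). limma on TPM called 742 genes higher and 1533 lower, or 32.6% higher. Leaving out 1 library gave 1494 to 2692 genes, 618 to 1158 of them higher and 836 to 1534 lower, and leaving out a Set gave 1202 (567 and 635), 605 (168 and 437) and 2398 (1036 and 1362) for Sets 1, 2 and 3. RLE scaling, DESeq2, no filter and removal of mitochondrial rows gave 2691, 3098, 2561 and 2709. The E+F+ against E+F- count was 2551 at the stricter threshold and 2028 to 3790 with a library or Set left out. The interaction with treatment called 0 genes under each alternative. The causes of these changes were not tested. Reversed values belonged to log2 differences that were not called. Leaving out a library or Set moved E+F+ minus unsorted from -0.2896 to 0.1975 for Hand2, -0.6165 to 0.3189 for Tnni3, -0.01406 to 0.34 for Bmp2, -0.1911 to 0.8241 for Cdh5 and -0.0695 to 0.8219 for Krt8. It moved the interaction from -0.4418 to 0.318 for Gata1, -0.4386 to 0.3132 for Tal1, -0.115 to 0.32 for Axin2, -0.434 to 0.04527 for Lef1 and -0.1167 to 0.7902 for Kdr. For Tal1 the interaction was -0.08551 without the replicate block and -0.004803 with RLE scaling, and for Gata1 it was 0.05745 in limma.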

Other observations

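A pair of further lists was written after the values had been seen, so their counts are descriptions, and 8 of the 33 amino acid response genes, Atf4, Trib3 and Ddit3 among them, were also in lists described above. Interferon-stimulated genes, which are induced when cells sense interferon, were lower in E+F+ cells under IWR-1. Of 34 named 31 were tested, 18 fell and 0 rose, with a median log2 difference of -1.77, and with DMSO 17 fell and 2 rose. Irf1, an interferon-induced transcription factor, measured 9.96, 7.59 and 6.22 TPM in the E+F+ libraries of Sets 1, 2 and 3 against 99.08, 31.4 and 37.46 TPM unsorted, a fall of 2.61. Gbp2, a guanylate-binding protein induced by interferon, was at 0.83, 0.59 and 1.18 TPM against 33.94, 13.37 and 29.59 TPM and fell by 4.902 (edgeR adjusted p = 0.000659). Psmb8, a subunit of the immunoproteasome, was at 0.5, 0.18 and 0.31 TPM against 13.62, 6.24 and 7.55 TPM. The groups did not overlap for any of these 3 genes.

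Amino acid response genes, which Atf4 induces when amino acids are short, were higher in E+F+ cells. Of 33 named 32 were tested, 20 rose and 0 fell, with a median of 0.65, and with DMSO 23 rose and 0 fell. Atf5, a target and relative of Atf4, was at 89.34, 69.04 and 70.66 TPM against 21.93, 31.2 and 34.3 TPM and rose by 1.48. Psph, the last enzyme of serine synthesis, was at 82.8, 103.68 and 76.25 TPM against 31.58, 55.02 and 43.59 TPM and rose by 1.10. The E+F+ libraries lay above the unsorted ones for both genes. Atf4 itself rose by 0.74, with log2 ratios of 1.435 in Set 1, 0.1354 in Set 2 and 0.703 in Set 3. Trib3, its inducible inhibitor, rose by 2.31, a call lost without Set 1 (edgeR adjusted p = 0.0512). Counts with a library or Set left out are not given for these further lists.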
